A study of Mus musculus with 4 samples.

Results

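The genes described here were the 39 protein-coding Hox genes among the 55387 rows measured by RNA sequencing in mouse brown adipose tissue (BAT), the fat that burns lipid and glucose to produce heat. They were chosen by name alone: a row entered when its symbol was Hox, a cluster letter from a to d and a number, and antisense and opposite-strand transcripts were left out. This gave 11 genes of cluster A, 10 of cluster B, 9 of cluster C and 9 of cluster D. The samples were BAT of 4 male mice aged 15 weeks, 1 library per mouse, with 2 mice of each genotype. The controls carried floxed Sox4 alleles (Sox4f/f, also labelled WT), and the other genotype carried floxed Sox4 with a Cre driven by Myf5 (Sox4-MKO). Myf5 marks progenitors that give rise to both brown fat and skeletal muscle, so the Cre was not confined to brown adipocytes. The comparison addressed how the loss of SOX4, an HMG-box transcription factor, changed gene expression in BAT. Values are FPKM as deposited, a fragment count corrected for transcript length and library depth.

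Hox genes encode homeodomain transcription factors that give cells their position along the head-to-tail axis. Within a cluster the genes lie in the order in which they are used along that axis, from anterior genes at the 3′ end to posterior genes at the 5′ end, and genes with the same number in different clusters are paralogs descended from one ancestral gene. Adult mesenchymal tissues, fat depots included, keep part of the Hox pattern of the region they came from. Here paralog groups 1 to 3 are called anterior, 4 to 8 central and 9 to 13 posterior.

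Sox4 was at 1.98 and 1.06 FPKM in the Sox4f/f mice and 0.981 and 3.06 FPKM in Sox4-MKO mice, so the values overlapped and the highest was under the knockout label. Its log2 fold change was 0.20 (SE 0.43, limma, adjusted p = 0.843), and the direction turned on 1 library, with -0.32 when Sox4-MKO mouse 2 was left out and 0.71 when mouse 1 was. These RNA values thus did not show a loss of Sox4, and what the floxed part covers is not given in the sources used here. The paper reports much less SOX4 protein in BAT of younger Sox4-MKO mice, which is a different measure and age. The conflict was not resolved, so the mice are called below by their label. The depth, estimated from the smallest steps of the FPKM values, was roughly 12200000 to 16900000 fragments per library. The 8 brown adipocyte markers were all present, with Ucp1, the uncoupling protein of brown fat, at 1935 and 1814 FPKM in the Sox4f/f mice and 733 and 1105 FPKM in mice labelled Sox4-MKO. The p-values measure only the spread between these libraries. In bulk tissue, fewer cells of a type and less RNA per cell cannot be told apart.

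The Hox pattern of this BAT was central. Of the 39 genes, 22 were above 0 in all 4 libraries, 5 were above 0 in 1 to 3 libraries and 12 were listed at 0 in all of them. All 12 belonged to paralog groups 10 to 13, apart from Hoxb1. Central genes held 83.0% and 86.0% of the summed Hox FPKM in Sox4f/f and 81.0% and 88.1% in mice labelled Sox4-MKO. Anterior genes held 14.9% and 12.8% against 13.7% and 9.71%. The posterior share was the smallest in every library, at 2.08% and 1.18% against 5.31% and 2.16%.

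**Figure D1:**
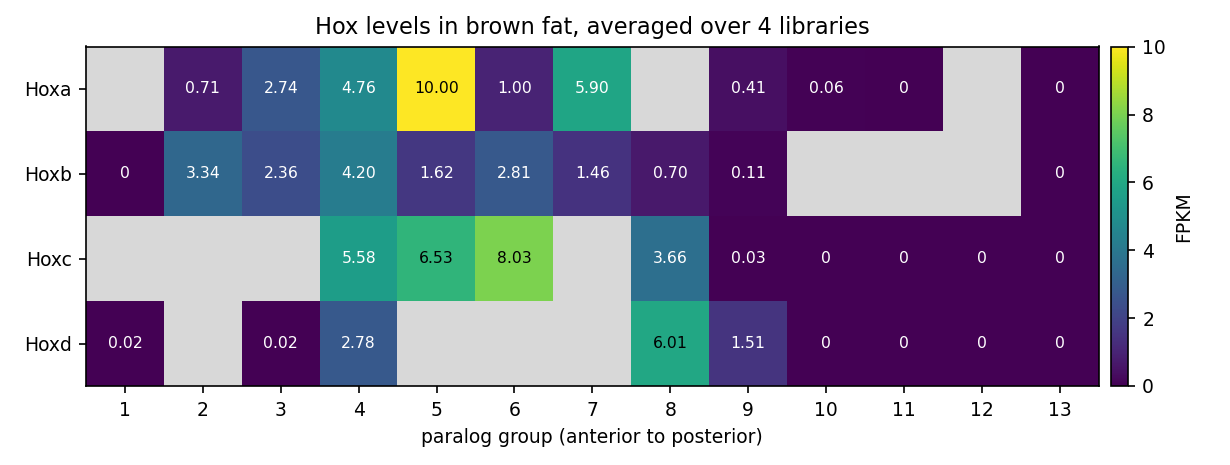
Mean FPKM over the 4 libraries by Hox gene, with clusters in rows and paralog groups in columns; yellow is the highest mean and dark violet is 0, and grey positions are not shown or have no gene. The highest values lie in paralog groups 4 to 8, with Hoxc6 at 8.03 and Hoxa5 above it, and groups 11 to 13 are at 0 in every cluster.

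All 4 clusters were at or near 0 at their posterior end, but by the mean over the libraries the step came at different paralogs. In cluster A (mm10 chr6:52155590-52260880, minus strand) the mean level was higher at each gene from Hoxa2 to Hoxa5, was low at Hoxa6, was high again at Hoxa7 and was below 1 FPKM from Hoxa9 onwards. In cluster B (chr11:96194316-96368256, plus strand) Hoxb2 to Hoxb7 averaged between 1.46 and 4.20 FPKM, and Hoxb8 averaged 0.70. In cluster C (chr15:102921103-103036852, plus strand) Hoxc4 to Hoxc8 were all above 3 FPKM on average, whereas Hoxc9 averaged 0.03. In cluster D (chr2:74668310-74765142, plus strand) the level was highest at Hoxd8, averaged 1.51 at Hoxd9 and was 0 from Hoxd10 to Hoxd13. Single mice weighed on some of these means. Hoxd9 was at 3.70 FPKM in Sox4-MKO mouse 1 and below 1 FPKM in every other library. Hoxc8 was at 7.94 FPKM in Sox4-MKO mouse 2, but at 1.20 in Sox4f/f mouse 1 and 2.07 in Sox4-MKO mouse 1. Over the 39 genes, the profiles of the libraries had Pearson correlations of 0.933 to 0.973 over the 6 pairs of libraries on log2(FPKM + 1) and Spearman correlations of 0.934 to 0.972. These are correlations across genes, which are not independent replicates, and they include the 12 genes at 0 in all libraries. Over the 18 genes tested below, the Pearson correlations were lower, from 0.680 between the mice labelled Sox4-MKO to 0.901 between Sox4f/f mouse 1 and Sox4-MKO mouse 1, and the Sox4f/f mice gave 0.890.

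**Figure D2:**
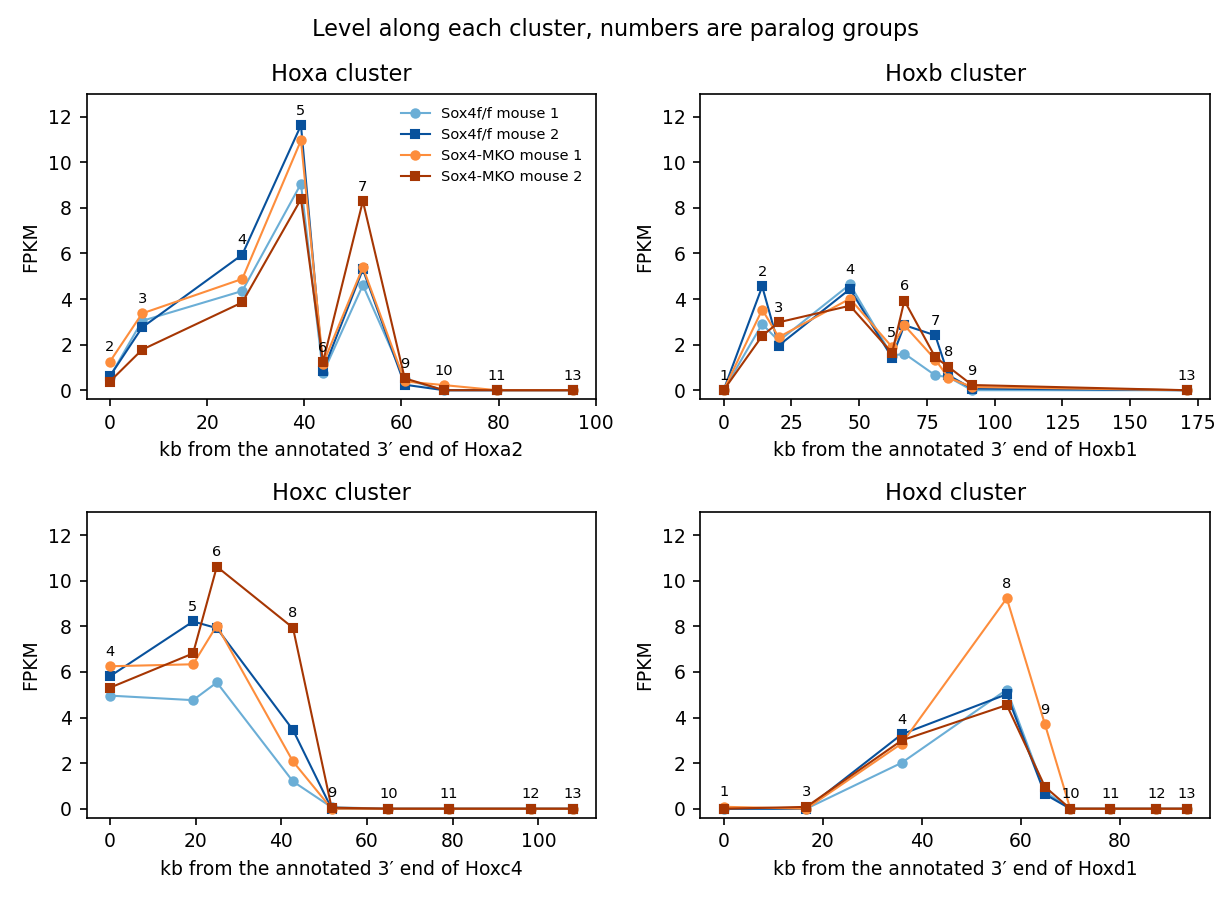
FPKM of the Hox genes in each library (lines) against distance in kb from the annotated 3′ end of the first gene plotted for its cluster, with paralog numbers above the points. The lines drop to near 0 beyond paralog group 9 in all 4 clusters, and 1 mouse stands above the other 3 at Hoxc8 (Sox4-MKO mouse 2) and at Hoxd8 and Hoxd9 (Sox4-MKO mouse 1).

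Promoter sequences are given for 4 genes at the contrasts above: Hoxa5, the gene with the highest mean level, the neighbours Hoxd8 and Hoxd9, and Hoxd10, the next gene, which was listed at 0. Each runs from 250 bases before to 50 bases after the annotated start, 5′ to 3′ on the gene's strand (RefSeq, GRCm38.p6). Capitals mark a match to one of 5 motifs searched on both strands: the TATA box TATAAA, the CCAAT box CCAAT, the SOX core ACAAAG, the MEIS core TGACAG and the PBX-HOX site TGATNNAT.
Hoxa5 (chr6:52204538-52204837, minus strand): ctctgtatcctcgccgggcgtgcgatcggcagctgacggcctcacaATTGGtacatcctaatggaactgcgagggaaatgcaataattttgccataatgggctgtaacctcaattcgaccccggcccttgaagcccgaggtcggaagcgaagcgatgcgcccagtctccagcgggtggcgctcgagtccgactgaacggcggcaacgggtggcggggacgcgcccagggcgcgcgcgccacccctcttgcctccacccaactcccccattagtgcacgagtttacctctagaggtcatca
Hoxd8 (chr2:74704365-74704664, plus strand): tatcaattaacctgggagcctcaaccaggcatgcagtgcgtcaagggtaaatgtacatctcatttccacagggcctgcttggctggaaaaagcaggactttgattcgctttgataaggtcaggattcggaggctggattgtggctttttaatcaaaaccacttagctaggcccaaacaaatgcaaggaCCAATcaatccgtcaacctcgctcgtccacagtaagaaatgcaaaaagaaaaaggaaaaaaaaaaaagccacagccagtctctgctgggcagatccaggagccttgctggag
Hoxd9 (chr2:74697513-74697812, plus strand): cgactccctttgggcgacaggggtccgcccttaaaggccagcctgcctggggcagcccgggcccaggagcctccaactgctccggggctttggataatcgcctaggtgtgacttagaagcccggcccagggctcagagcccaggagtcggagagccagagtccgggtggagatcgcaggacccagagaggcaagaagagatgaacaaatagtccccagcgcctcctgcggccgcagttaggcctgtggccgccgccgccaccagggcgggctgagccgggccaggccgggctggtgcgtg
Hoxd10 (chr2:74691641-74691940, plus strand): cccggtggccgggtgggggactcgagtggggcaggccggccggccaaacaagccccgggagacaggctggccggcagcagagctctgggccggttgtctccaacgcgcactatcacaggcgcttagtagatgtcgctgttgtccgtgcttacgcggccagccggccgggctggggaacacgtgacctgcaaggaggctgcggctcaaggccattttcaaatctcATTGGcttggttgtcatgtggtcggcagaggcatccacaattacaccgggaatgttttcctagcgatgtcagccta
The CCAAT box was the only motif found, on the plus strand of the printed sequence in Hoxd8 and as ATTGG on the other in Hoxa5 and Hoxd10, and the Hoxd9 window held none of the 5. The windows held 29, 6, 20 and 22 CpG dinucleotides in the printed order. Level and CpG number were not ordered alike, as Hoxd8 at a mean of 6.01 FPKM had the fewest CpGs and Hoxd10 at 0 had 22.

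RefSeq gave 24 promoters for 22 of the 39 genes, set beside 32851 promoters of 27025 genes. A Hox promoter held a median of 14.5 CpGs against 7 over all promoters, and its median GC content was 57.7% against 52.7%. A CCAAT box lay in 62.5% of Hox promoters and in 37.4% of all. The SOX core lay in 25% against 18.7%, the TATA box in 16.7% against 13.6%, the PBX-HOX site in 16.7% against 8.85% and the MEIS core in 8.33% against 19.2%. These shares rest on 15, 6, 4, 4 and 2 Hox promoters and are descriptions of letters, not of binding. The 9 promoters of Hox genes that entered the test of genotype had a median of 14 CpGs (4 to 29), and the 8 promoters of Hox genes at 0 in all libraries had a median of 18.5 (4 to 45).

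Differences between genotypes were tested with limma on log2(FPKM + 1) over the 12877 genes whose genotype mean exceeded 1 FPKM for either genotype, of which 18 were Hox genes. Hoxa6 and Hoxd9 passed that limit only through the mice labelled Sox4-MKO. The smallest unadjusted p among the 18 was 0.136, so 0 were called at 0.05 in either direction, whereas 16.2% of all tested genes were (7.95% higher, 8.28% lower). After Benjamini-Hochberg adjustment 0 of the 12877 genes passed, with a lowest adjusted p of 0.191, and the lowest among the Hox genes was 0.432. A miss of the threshold with 2 mice per genotype does not show that levels were alike, and the intervals given below show what size of difference remained possible.

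**Figure D3:**
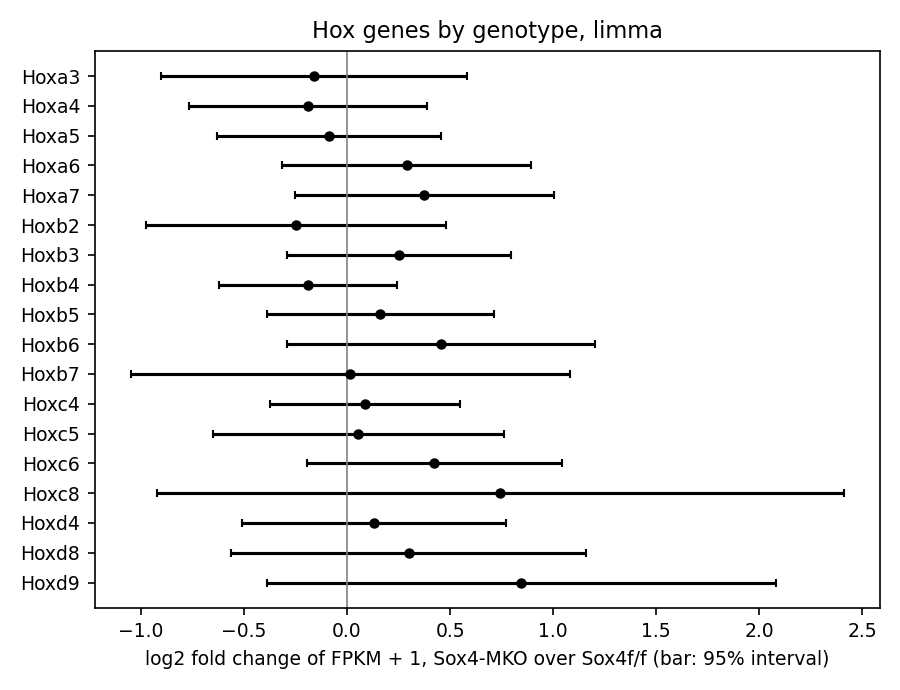
Log2 fold change of the 18 tested Hox genes (mice labelled Sox4-MKO against Sox4f/f, on log2(FPKM + 1)) with 95% intervals from limma. Every interval includes 0, and the widest belong to Hoxc8 and Hoxd9.

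The anterior genes pattern the hindbrain and neck. Hoxa3, needed for the thymus and parathyroid glands, was at 3.04 and 2.75 FPKM in the Sox4f/f mice and 3.37 and 1.78 FPKM in mice labelled Sox4-MKO. Hoxb2, a hindbrain segment gene, was at 2.90 and 4.55 against 3.54 and 2.39 FPKM. Their values overlapped between genotypes, with log2 fold changes of -0.16 (95% interval -0.90 to 0.58) and -0.25 (-0.98 to 0.48). Hoxb3 was at 2.16 and 1.96 FPKM in the Sox4f/f mice and 2.33 and 2.98 FPKM in mice labelled Sox4-MKO, which were both higher, and its log2 fold change was 0.25 (-0.29 to 0.80, limma, adjusted p = 0.571). Below the limit for testing, Hoxa2 was at 0.590, 0.610, 1.25 and 0.381 FPKM in Sox4f/f mice 1 and 2 and then Sox4-MKO mice 1 and 2. It was highest in Sox4-MKO mouse 1 and lowest in Sox4-MKO mouse 2. Hoxd1 was above 0 only in Sox4-MKO mouse 1, at 0.0846 FPKM, and Hoxd3 only in Sox4-MKO mouse 2, at 0.0802 FPKM.

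Paralog groups 4 and 5, which pattern the neck and upper thorax, held the highest sums of all groups in each of the 4 libraries, with 15.9 to 19.5 FPKM for group 4 and 15.3 to 21.3 FPKM for group 5. Hoxa5, which patterns the neck-to-thorax transition and the airway, was at 9.06 and 11.6 FPKM in the Sox4f/f mice and 11.0 and 8.38 FPKM in mice labelled Sox4-MKO. These overlapped, and the means were 10.3 ± 1.81 and 9.67 ± 1.82 FPKM (SD), a log2 fold change of -0.09 (-0.63 to 0.46). Hoxa4 was at 4.35 and 5.95 against 4.88 and 3.85 FPKM (log2 fold change -0.19, interval -0.77 to 0.39). Hoxc4 was among the steadiest, at 4.96 and 5.81 against 6.25 and 5.31 FPKM, with the highest library 1.26 times the lowest and a log2 fold change of 0.09 (-0.38 to 0.55). Hoxb4, known for its part in blood progenitors, was at 4.64 and 4.44 FPKM in the Sox4f/f mice and 4.01 and 3.71 FPKM in mice labelled Sox4-MKO. It was the only tested Hox gene with both mice labelled Sox4-MKO below both controls, and its log2 fold change was -0.19 (-0.62 to 0.24, limma, adjusted p = 0.590). Hoxd4 was at 2.01 and 3.27 against 2.86 and 2.997 FPKM, which overlapped, with a log2 fold change of 0.13 (-0.51 to 0.77). Hoxb5 was at 1.51 and 1.44 against 1.89 and 1.64 FPKM, both higher under the Sox4-MKO label (0.16, -0.39 to 0.71). Hoxc5 was at 4.76 and 8.21 against 6.34 and 6.81 FPKM, where both lay between the controls (0.06, -0.65 to 0.76).

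Paralog groups 6 to 8 pattern the thorax. Their summed level was 20.2 and 28.5 FPKM in Sox4f/f and 30.6 and 39.0 FPKM in mice labelled Sox4-MKO, which was 32.5% and 35.4% against 36.6% and 48.0% of all Hox FPKM. The groups 4 and 5 together gave 31.3 and 40.7 against 37.2 and 32.7 FPKM. This split of the central genes was made after their values were seen and carries no test. The mean paralog number weighted by FPKM was 5.09 and 5.15 in Sox4f/f and 5.37 and 5.59 in mice labelled Sox4-MKO, also without a test.

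Hoxc6, expressed through the thorax, was at 5.54 and 7.92 FPKM in the Sox4f/f mice and 8.04 and 10.6 FPKM in mice labelled Sox4-MKO. The genotypes did not overlap, although Sox4f/f mouse 2 and Sox4-MKO mouse 1 nearly met, with means of 6.73 ± 1.69 and 9.33 ± 1.83 FPKM (SD) and a log2 fold change of 0.42 (-0.20 to 1.04, limma, adjusted p = 0.433). Hoxa7 was at 4.61 and 5.30 against 5.40 and 8.30 FPKM, again without overlap but with close middle values, with a log2 fold change of 0.38 (-0.25 to 1.00, limma, adjusted p = 0.480). With Sox4-MKO mouse 1 left out this became 0.65, and with mouse 2 left out 0.11. Hoxa6 was at 0.749 and 0.846 against 1.16 and 1.24 FPKM, which rested on an estimated 9 to 18 fragments per library, and its log2 fold change was 0.29 (-0.31 to 0.89). Hoxb6 overlapped, at 1.61 and 2.86 against 2.85 and 3.93 FPKM (0.46, -0.29 to 1.21). Hoxb7 was at 0.651 and 2.41 FPKM within Sox4f/f alone, a wider span than the 1.35 and 1.45 FPKM of the mice labelled Sox4-MKO (0.01, -1.05 to 1.08). Hoxb8, below the limit, was at 0.576 and 0.657 against 0.548 and 1.02 FPKM.

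Hoxc8, a thoracic gene known as a repressor of the brown fat programme in white fat progenitors, was the tested Hox gene with the largest ratio between its highest and lowest library. It was at 1.20 and 3.46 FPKM in the Sox4f/f mice and 2.07 and 7.94 FPKM in mice labelled Sox4-MKO. The values overlapped, as Sox4-MKO mouse 1 lay between the controls, and the highest library was 6.63 times the lowest. The coefficient of variation over the 4 libraries was 81.7%, against 9.85% from counting an estimated 31 to 251 fragments alone. Its log2 fold change was 0.74 (-0.92 to 2.41, limma, adjusted p = 0.584), which became -0.026 when Sox4-MKO mouse 2 was left out and 1.51 when mouse 1 was.

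Hoxd8 and its neighbour Hoxd9 were both highest in Sox4-MKO mouse 1. Hoxd8, a trunk gene, was at 5.23 and 5.02 FPKM in the Sox4f/f mice and 9.23 and 4.55 FPKM in mice labelled Sox4-MKO, the other of which was the lowest of all. Hoxd9, a gene of the lower trunk and limb, was at 0.745 and 0.632 against 3.70 and 0.960 FPKM, so that both were above the controls. Their log2 fold changes were 0.30 (-0.56 to 1.16) and 0.85 (-0.39 to 2.08), with limma adjusted p-values of 0.671 and 0.432. With Sox4-MKO mouse 2 left out they became 0.74 and 1.48, and with mouse 1 left out they became -0.14 and 0.22. Hoxd10, the next gene, was at 0 in all 4 libraries. The same mouse had the highest skeletal muscle signal, with a sum over 10 muscle markers of 186 and 686 FPKM in Sox4f/f and of 12377 and 2551 FPKM in mice labelled Sox4-MKO, and its part in the Hoxd8 and Hoxd9 levels was not tested.

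Other posterior genes were scarcely detected. Hoxa9 was at 0.477, 0.242, 0.385 and 0.523 FPKM in the order given above, with the genotypes overlapping. Hoxb9 was listed at 0 in Sox4f/f mouse 1 and at 0.0747, 0.142 and 0.228 FPKM in the others. Hoxc9 was at 0.0642 FPKM in Sox4f/f mouse 1, at 0.0468 FPKM in Sox4-MKO mouse 2 and listed at 0 in the remaining libraries. Hoxa10 was above 0 only in Sox4-MKO mouse 1, at 0.224 FPKM. Hoxa11, Hoxa13, Hoxb13, Hoxc10 to Hoxc13 and Hoxd10 to Hoxd13, which pattern the lower trunk, limbs and tail, were listed at 0 throughout, as was Hoxb1 of the hindbrain. Hoxc10, which is known as a repressor of browning in subcutaneous fat, is one of them. A listed 0 can stand for a level below detection.

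**Figure D4:**
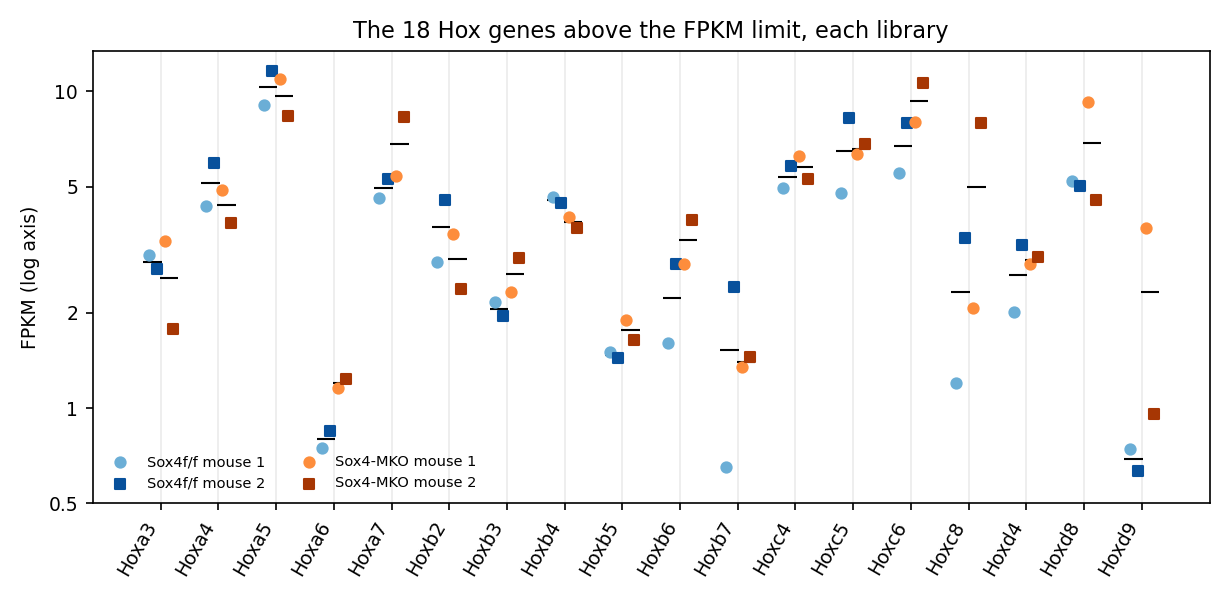
FPKM of each tested Hox gene in each library, on a log axis, with blue points for Sox4f/f mice, orange and brown points for mice labelled Sox4-MKO and short lines for the genotype means. The genotypes overlap for 11 of the 18 genes, and single mice stand apart at Hoxc8 in Sox4-MKO mouse 2 (7.94) and Hoxd8 in Sox4-MKO mouse 1 (9.23).

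Across the 18 tested genes, 7 did not overlap between genotypes (6 higher and 1 lower under the Sox4-MKO label), which is 38.9%, whereas 51.3% of all tested genes did not overlap (21.7% higher, 29.6% lower). A log2 fold change above 0 was found for 13 of the 18 against 44.0% of all tested genes, and of the 13, Hoxb7 and Hoxd4 were below 0 after quantile normalization. With a library left out, the number above 0 ran from 9 (without Sox4f/f mouse 1) to 15 (without Sox4f/f mouse 2). Over all 12877 tested genes it was 6010 and 5659 in these 2 fits. The median was 0.15 for the Hox genes and -0.05 for all tested genes. Hoxa6 and Hoxd9 are among the 13 and entered only through the libraries where they were higher. Between libraries, Sox4f/f mouse 1 was the lowest for 9 of the 18 genes and Sox4-MKO mouse 2 for 6, although the latter was also the highest for 6. For 13 of the 18 the highest library was less than 2 times the lowest, and it was more than 3 times the lowest for Hoxb7, Hoxc8 and Hoxd9.

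The summed level of the 39 genes was 62.0 and 80.4 FPKM in Sox4f/f and 83.7 and 81.4 FPKM in mice labelled Sox4-MKO. Both of the latter were higher, but the second control lay just below the nearer of them. The means were 71.2 ± 13.04 and 82.6 ± 1.66 FPKM (SD, n = 2 each), a log2 ratio of 0.21, at p = 0.333 in an exact two-sided permutation test, which is the smallest that 2 against 2 libraries can give. Without Sox4f/f mouse 1 the log2 ratio was 0.038. With the libraries scaled to a common median it was 0.19 (exact permutation p = 0.667), and the genotypes then overlapped. After rescaling without mitochondrially encoded genes and Ucp1 it was 0.29 (exact permutation p = 0.333). The deposited FPKM of all rows summed to 578011 and 544564 in Sox4f/f and 495145 and 472062 in mice labelled Sox4-MKO. As a percent of these sums, the Hox total was 0.0107 and 0.0148 against 0.0169 and 0.0172 (exact permutation p = 0.333). The size of the difference in the Hox total thus depended on the scaling. Cluster A summed to 23.4 and 27.7 against 28.5 and 24.7 FPKM, and cluster B to 14.05 and 18.4 against 16.7 and 17.3 FPKM. Cluster C summed to 16.5 and 25.4 against 22.7 and 30.7 FPKM. Cluster D summed to 7.99 and 8.92 against 15.9 and 8.59 FPKM, where only Sox4-MKO mouse 1 stood apart. All 4 clusters overlapped between genotypes, with log2 ratios of 0.06, 0.07, 0.35 and 0.53 and exact permutation p-values of 0.667, 1, 0.667 and 0.667.

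**Figure D5:**
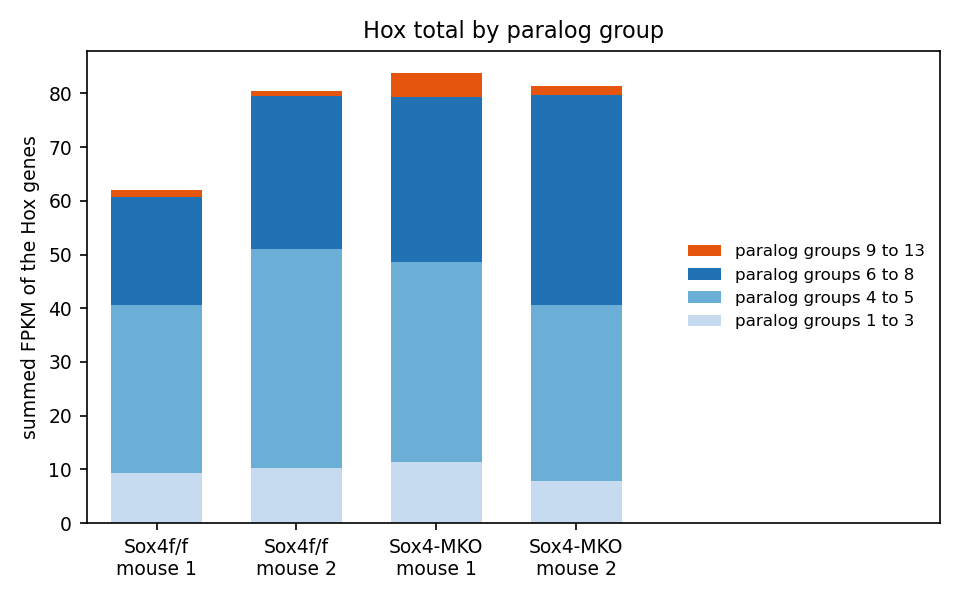
Summed Hox FPKM per library, stacked by paralog group from 0, for the 2 Sox4f/f mice and the 2 mice labelled Sox4-MKO. The totals are 62.0, 80.4, 83.7 and 81.4, the band of groups 6 to 8 is tallest in Sox4-MKO mouse 2 (39.0), and the band of groups 9 to 13 is tallest in Sox4-MKO mouse 1.

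By region, the central share was 84.5 ± 2.14% in Sox4f/f and 84.6 ± 5.04% in mice labelled Sox4-MKO (SD, n = 2 each, exact permutation p = 1). The anterior share was 13.9 ± 1.51% against 11.7 ± 2.82% (SD, n = 2 each, exact permutation p = 0.667). The difference of -2.16 percentage points became -0.16 with Sox4-MKO mouse 2 left out and -4.15 with mouse 1 left out. The posterior share was 1.63 ± 0.634% against 3.73 ± 2.23% (SD, n = 2 each, exact permutation p = 0.333). The posterior shares did not overlap, and Hoxd9 made up most of the 5.31% in Sox4-MKO mouse 1. Without that mouse the difference in posterior share was 0.532 percentage points, against 2.11 with it.

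Several lists of cell markers, chosen with earlier results of these data known, differed between genotypes in the same libraries. The 10 stroma and progenitor markers summed to 392 and 421 FPKM in Sox4f/f and to 843 and 780 FPKM in mice labelled Sox4-MKO. Of these 10, 9 were higher at an unadjusted p under 0.05. At that threshold 7.95% of all tested genes were higher and 8.28% lower, and 0 passed after adjustment. Of the 10 muscle markers 8 were higher, of the 6 macrophage markers 4 (sums 96.7 and 135 against 212 and 187 FPKM), and of the 8 brown adipocyte markers 5 were lower (sums 7133 and 6942 against 3441 and 4189 FPKM). Among the remaining lists, 1 of 6 endothelial markers (sums 156 and 194 against 120 and 172 FPKM) and 1 of 5 general adipocyte markers (8298 and 8754 against 7455 and 9963 FPKM) was lower, none of the Schwann cell and smooth muscle markers was called, and B cell markers were too low to test. None of these lists had a gene listed at 0 in all 4 libraries. The part of these cells in the Hox levels was not tested.

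The TALE homeodomain proteins of the MEIS, PBX and PKNOX families bind DNA together with HOX proteins. Of 9 such genes 8 were tested, 1 was higher and 1 lower at an unadjusted p under 0.05, a threshold that 16.2% of all tested genes passed. Pknox2 was at 0.351 and 0.597 FPKM in the Sox4f/f mice and 2.41 and 1.61 FPKM in mice labelled Sox4-MKO, both higher, with a log2 fold change of 1.02 (SE 0.27, limma, adjusted p = 0.228). Pbx2, the highest of the family, was at 22.9 and 22.2 against 18.3 and 16.5 FPKM, both lower, with a log2 fold change of -0.36 (SE 0.13, limma, adjusted p = 0.292). In this and the following lists, genes named for a change had to show no overlap between genotypes. Of all tested genes, 51.3% showed none.

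Polycomb proteins keep Hox genes silent outside their region, and Trithorax proteins keep them active. Of 25 such genes 24 were tested, and 4 were lower and 0 higher at an unadjusted p under 0.05, where 8.28% of all tested genes were lower and 7.95% higher. Their median log2 fold change was -0.27, beside -0.05 for all tested genes. Kdm6b, a demethylase that removes the Polycomb mark, was at 15.6 and 18.5 FPKM in the Sox4f/f mice and 11.1 and 10.6 FPKM in mice labelled Sox4-MKO (log2 fold change -0.61, SE 0.15, limma, adjusted p = 0.220). Kmt2b, a Trithorax methyltransferase, was at 13.1 and 12.7 against 10.3 and 7.88 FPKM (-0.47, SE 0.17, limma, adjusted p = 0.300). By the rule for naming, both were lower in each library under the Sox4-MKO label, as were the Polycomb genes Phc2 and Jarid2. Phc2 was at 27.9 and 25.2 against 18.7 and 19.6 FPKM (-0.45, SE 0.13, limma, adjusted p = 0.241). Jarid2 was at 16.4 and 15.8 against 12.5 and 12.4 FPKM (-0.34, SE 0.13, limma, adjusted p = 0.301). Rbbp7, the highest of the list, overlapped at 45.5 and 39.9 against 43.7 and 36.4 FPKM. In all, 22 of the 24 had a log2 fold change below 0, as had 7206 of all 12877 tested genes.

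Of 16 genes of the Cdx, retinoic acid and Gdf11 inputs, which set Hox expression in the embryo, 8 were tested and 2 were higher at an unadjusted p under 0.05, beside 7.95% of all tested genes. Aldh1a1, which makes retinoic acid, was at 7.46 and 6.75 FPKM in the Sox4f/f mice and 60.8 and 31.2 FPKM in mice labelled Sox4-MKO (log2 fold change 2.46, SE 0.33, limma, adjusted p = 0.196). Rxra, a retinoid receptor and the other, was at 18.9 and 20.4 against 28.3 and 27.5 FPKM (0.49, SE 0.12, limma, adjusted p = 0.223). Aldh1a1 and Rxra were higher in each library under the Sox4-MKO label, as the rule for naming required. The other 6 tested genes were not called, among them the retinoic acid receptor Rarb (log2 fold change 0.012). A log2 fold change above 0 was found for 7 of the 8, beside 44.0% of all tested genes, and Rdh10 was at -0.28. Cdx1, Cdx2 and Cdx4 were listed at 0 in all libraries.

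Among 21 other factors that mark body regions 10 were tested, 2 were higher and 0 lower at that threshold (all tested genes 7.95% and 8.28%). Tbx15, a T-box factor of the trunk and of certain fat depots and muscles, was at 3.62 and 2.73 FPKM in the Sox4f/f mice and 23.1 and 9.81 FPKM in mice labelled Sox4-MKO (log2 fold change 1.96, SE 0.42, limma, adjusted p = 0.212). It was highest in Sox4-MKO mouse 1, the library with the highest muscle sum and the highest Hoxd8 and Hoxd9, and the part of muscle in it was not tested. Tbx3, the highest of the list over the 4 libraries, overlapped at 11.8 and 18.9 against 5.16 and 13.7 FPKM.

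Genes beside the clusters and non-coding transcripts within them were also examined. Of 10 flanking genes 9 were measured and 5 tested, with 0 called (16.2% of all tested genes). Mtx2, a mitochondrial gene beside cluster D and the highest of them, was at 57.8 and 53.5 FPKM in the Sox4f/f mice and 51.4 and 42.0 FPKM in mice labelled Sox4-MKO (log2 fold change -0.25, limma, adjusted p = 0.448). Of 16 non-coding transcripts 9 were at 0 in all libraries and 4 were tested, of which 1 was lower (8.28% of all tested genes). Those at 0 included the microRNA genes Mir10a, Mir10b, Mir196a-1, Mir196a-2, Mir196b and Mir615, and a listed 0 does not show that they were silent. Hotairm1, a non-coding transcript of cluster A, was at 37.5 and 34.2 against 25.1 and 22.5 FPKM, lower in both, with a log2 fold change of -0.57 (SE 0.13, limma, adjusted p = 0.214). Whether fragments were counted by strand is not stated. In the annotation 15 of the 39 Hox genes overlap another gene on the same strand and 14 on the other strand, and Hoxa3, Hoxc5 and Hoxd3 have transcripts that reach over their neighbours, so a level can hold fragments of the gene it overlaps.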

How the data were processed

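The authors deposited 1 FPKM value per gene and library, FPKM being fragments per kilobase scaled to the mapped fragments. The submitters' processing notes name mm10, Cuffdiff and Cufflinks 2.1.1 without roles, and the aligner is not given in the sources used here. The labels describe a stranded kit and the methods a different one, and whether counting used strand is not stated. Genotypes and mouse numbers came from the titles. The Hox members follow a rule on symbols that used no values, but the rule and the gene lists were set with earlier results of these data known. Coordinates are those of GENCODE M21 (GRCm38), in which all 39 symbols matched.

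FPKM carry no counts, so limma 3.58.1 (R 4.3.3) was fitted on log2(FPKM + 1) with a single genotype term and a trended prior, over the 12877 genes whose genotype mean exceeded 1 FPKM for either genotype. Fold changes on this scale understate those of low genes. Adjustment was by Benjamini-Hochberg over all genes tested, and intervals are 95%. Sums and shares were compared by exact permutation over the 4 libraries. The code was tested on simulated data in which 200 of 12877 genes were changed by 1 log2 unit. At an unadjusted p under 0.05 limma recovered 86.5% of these, and 5.49% of the unchanged genes passed. At an adjusted p under 0.05 it recovered 0%, so a lack of adjusted calls says little at this sample size. Depth and fragments per gene are rough estimates from FPKM steps and annotated lengths, and intervals from them cover counting error only. Named by rule were the Hox members, and of each context list the highest member and up to 4 with the largest change among those with p under 0.05 and no overlap. The alternatives were 2 other pseudocounts, 2 other FPKM limits, 3 rescalings, 2 other priors, a replicate block and each library left out. Individual values of some genes are not reported here. The ChIP-seq data of the series were not analysed here.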

Additional observations from a re-analysis of the deposited data

How the results depend on the processing

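With 2 libraries per genotype, the 95% intervals of the Hox log2 fold changes reached as far as 2.41, for Hoxc8. No Hox gene was lower at an unadjusted p under 0.05 in any alternative that kept all 4 libraries. In these the number higher was 0 except for 1 without moderation (Hoxa6) and 1 with the replicate block (Hoxc8). Of all 12877 tested genes, 553 were higher without moderation and 970 with the replicate block. Across the 12877 tested genes, samples with the same number did not deviate together from their genotype means (r = -0.012). A value over all genes cannot decide whether single Hox genes did. The median log2 fold change of the Hox genes was 0.21 and 0.22 at pseudocounts of 0.1 and 0.01, 0.13 without a filter, 0.015 after quantile normalization, 0.13 at a common median, 0.19 after rescaling without mitochondrially encoded genes and Ucp1, and 0.083 to 0.302 with a library left out. In the alternatives that kept all 4 libraries, 176 of 180 values for the 18 genes kept direction and side of the threshold. Of the rest, 2 reversed and 2 passed it newly, which are the calls of Hoxa6 and Hoxc8 above. With a library left out, 12 of 72 values reversed direction. In every alternative, 9 genes kept their direction. After quantile normalization Hoxb7 was at -0.14 and Hoxd4 at -0.023. With a library left out, 9 Hox genes and Rbbp7 crossed 0. Hoxa3 ran from -0.49 to 0.17 (above 0 without Sox4-MKO mouse 2), Hoxa5 from -0.26 to 0.086 (above 0 without Sox4f/f mouse 2, at 0.075, or Sox4-MKO mouse 2), Hoxb2 from -0.50 to 0.0059 (without Sox4f/f mouse 2) and Rbbp7 from -0.22 to 0.034 (without Sox4-MKO mouse 2). Hoxb7 ran from -0.51 (without Sox4f/f mouse 1; -0.016 without Sox4-MKO mouse 2) to 0.54, Hoxc4 from -0.014 (without Sox4-MKO mouse 1; -0.0096 without Sox4f/f mouse 1) to 0.19, Hoxc5 from -0.28 (without Sox4f/f mouse 1) to 0.39, Hoxd4 from -0.12 (without Sox4f/f mouse 1) to 0.38, Hoxc8 from -0.026 (without Sox4-MKO mouse 2) to 1.51 and Hoxd8 from -0.14 (without Sox4-MKO mouse 1) to 0.74. Without crossing 0, Hoxa4 ran from -0.38 (without Sox4f/f mouse 1) to -0.0030 (without Sox4f/f mouse 2), Hoxb6 from 0.18 to 0.74 and Hoxc6 from 0.20 to 0.65 (without Sox4f/f mouse 1 and mouse 2 in that order), Hoxa7 from 0.11 to 0.65, Hoxb3 from 0.12 to 0.38 and Hoxd9 from 1.48 to 0.22 (without Sox4-MKO mouse 2 and mouse 1 in that order), and Hoxb5 from 0.093 (without Sox4-MKO mouse 1) to 0.23. In these fits 1 genotype has a single mouse, which is assumed to vary like the other genotype. The difference in central share ran from -3.52 to 3.62 percentage points with a library left out, with -1.47 without Sox4f/f mouse 1. The log2 ratio of the Hox total stayed above 0, from 0.04 to 0.41 with a library left out. Rescaling without mitochondrially encoded genes and Ucp1 moved the calls over all genes at an unadjusted p under 0.05 from 1066 lower and 1024 higher to 746 lower and 1322 higher, and with a library left out they numbered 813 to 2258. Without moderation there were 935 lower and 553 higher. Over all genes, 1 passed at an adjusted p under 0.05 without Sox4f/f mouse 1 and 4 without Sox4f/f mouse 2. Of the context genes called, Aldh1a1 passed in all 14 alternatives, and Pknox2, Rxra and Hotairm1 in 13 (not without Sox4f/f mouse 1). Kdm6b was lost without Sox4f/f mouse 2 or Sox4-MKO mouse 2, Tbx15 without moderation or Sox4f/f mouse 2, and Phc2 without either control or Sox4-MKO mouse 1. Kmt2b passed in 9 alternatives, Pbx2 in 7 and Jarid2 in 6, with losses without either control for all of them, and Pbx2 and Jarid2 were also lost with the replicate block. The cause of these changes was not tested.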
